A study of Mus musculus with 16 samples.

Results

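Red cell transcripts were followed in the mouse adrenal gland through a set of 9 erythroid genes, of which 8 had a row among the 54838 genes of the deposited count file: Hemgn, Klf1, Slc4a1, Alas2, Hba-a1, Hba-a2, Hbb-bs and Hbb-bt. Rows were assigned by matching their Ensembl identifiers to GENCODE mouse M21 on the GRCm38 build, and Ahsp, which matched none, was not analysed here. All 8 passed the filter on low counts that left 18214 genes for testing. The set was chosen with measured values of these same libraries known, in first place the high Hemgn of the female gain-of-function group, so the fold changes of the 8 genes are given as descriptions with standard errors (SE) and without p-values.

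The study compared gene expression between the sexes in control and Rspo1 gain-of-function (GOF) adrenals of 4-week-old mice. The 4 groups were female control, female Rspo1 GOF, male control and male Rspo1 GOF, each with 4 libraries from 4 individual mice on a mixed genetic background. R-spondin 1, the product of Rspo1, is secreted and amplifies WNT signals; what drives it in the GOF mice, and in which cells, is not given in the sources used here. Replicate numbers are names only. The animal numbers fell into 4 ranges, and only 1 of these held both sexes. Outside that range, sex and range cannot be told apart.

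Red blood cells form in the bone marrow and, in mice, also in the spleen. Erythroblasts, their nucleated precursors, switch on genes for globin, haem synthesis and the cell membrane under the transcription factors GATA1 and KLF1, and reticulocytes and circulating red cells keep a part of that RNA, mostly globin, after the nucleus is lost. A gland taken with its blood therefore holds globin RNA, whereas Hemgn is best known from nucleated precursors. In bulk tissue, fewer cells of a type and less RNA per cell cannot be told apart.

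The promoters of 5 of these genes are printed because GATA and KLF factors are known to read such sites in red cell genes, and because Hemgn on one side and Alas2, Hba-a1 and Hbb-bs on the other had different expression patterns; Hbb-bt, which followed neither, is shown beside its pair Hbb-bs. Of the 8 genes, 7 had an entry in the RefSeq promoter table of build GRCm38.p6, and the 250 bases before the annotated start are given here, 5′ to 3′ on the gene's strand. Capitals mark matches on either strand to a GATA motif, the word GATA with an A or T before it and an A or G after it, and to a KLF motif, CCNCNCCCN.
Hemgn (chr4:46404184-46404433, minus strand): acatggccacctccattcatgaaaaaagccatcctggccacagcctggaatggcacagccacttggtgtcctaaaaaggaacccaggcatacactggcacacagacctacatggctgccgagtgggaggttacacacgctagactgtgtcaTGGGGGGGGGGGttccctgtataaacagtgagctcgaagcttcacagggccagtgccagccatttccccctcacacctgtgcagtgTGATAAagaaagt
Alas2 (chrX:150547167-150547416, plus strand): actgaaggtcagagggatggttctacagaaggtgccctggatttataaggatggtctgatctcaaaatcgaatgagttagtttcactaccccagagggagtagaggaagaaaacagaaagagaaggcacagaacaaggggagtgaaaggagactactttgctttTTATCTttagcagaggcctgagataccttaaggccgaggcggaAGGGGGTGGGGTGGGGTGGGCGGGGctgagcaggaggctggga
Hba-a1 (chr11:32283422-32283671, plus strand): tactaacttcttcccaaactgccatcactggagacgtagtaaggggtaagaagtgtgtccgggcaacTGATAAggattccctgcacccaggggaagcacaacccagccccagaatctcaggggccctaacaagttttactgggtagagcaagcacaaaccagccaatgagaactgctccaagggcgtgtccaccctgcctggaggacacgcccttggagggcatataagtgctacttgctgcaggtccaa
Hbb-bs (chr7:103827929-103828178, minus strand): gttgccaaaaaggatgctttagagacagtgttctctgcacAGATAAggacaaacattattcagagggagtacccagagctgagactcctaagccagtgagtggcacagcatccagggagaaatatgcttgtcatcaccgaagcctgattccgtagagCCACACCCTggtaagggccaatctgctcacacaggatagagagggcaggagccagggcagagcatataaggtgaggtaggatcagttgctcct
Hbb-bt (chr7:103813924-103814173, minus strand): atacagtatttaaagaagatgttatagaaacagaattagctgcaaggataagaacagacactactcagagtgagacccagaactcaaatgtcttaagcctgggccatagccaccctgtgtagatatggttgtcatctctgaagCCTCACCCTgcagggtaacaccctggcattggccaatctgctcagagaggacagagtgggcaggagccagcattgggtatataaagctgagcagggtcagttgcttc
Hemgn held 1 GATA match, whose first base lay 13 bases before the start, and 4 overlapping KLF matches inside a run of G. This RefSeq start lies inside the gene as GENCODE M21 places it: a GENCODE transcript starts close to it, and a longer one farther upstream. Alas2 held 1 GATA match, at position -86, and 4 KLF matches, some overlapping, between positions -43 and -27. In Hbb-bs the GATA match lay at -210 and the single KLF match at -93, whereas Hbb-bt had a KLF match at -107 and no GATA match in this window. Hba-a1 had a GATA match at -183 and no KLF match. Hba-a2, not printed, shared a run of 247 bases with it, while the longest run common to the promoters of Hbb-bs and Hbb-bt was 14 bases. Over all 32851 promoter windows of this length, 26.5% held a GATA match, 45.8% a KLF match and 8.17% both, so a match on its own is common.

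The libraries held between 31275146 and 43003968 counts. Rspo1 lay between 354 and 972 CPM (counts per 1000000, on library sizes scaled by TMM factors) in the GOF libraries and between 3.20 and 48.2 in the controls. Defining genes of the gland were present: 6 adrenal cortex genes summed to at least 28932 CPM in every library. Some libraries stood apart. A sum of 7 liver genes reached 8278 CPM in male control 2 and at most 55.8 CPM elsewhere, 6 kidney genes summed to 898 CPM in female control 1, to 158 CPM in female control 3 and to 2.08 CPM or less elsewhere, and a sum of 10 neutrophil and myeloid precursor genes was highest in male GOF 2, at 196 CPM, and female GOF 1, at 122 CPM.

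Hemgn, Klf1 and Slc4a1 had their highest means in female GOF. Hemgn (ENSMUSG00000028332, chromosome 4, 46393989 to 46413506, minus strand, protein-coding) encodes hemogen, a nuclear protein of blood-forming cells. Its raw counts were 188, 85, 8 and 48 in female GOF 1 to 4. They were 0, 1, 0 and 4 in the female controls, 0, 1, 10 and 3 in the male controls and 2, 5, 1 and 2 in male GOF. Of these 16 values 3 were 0, and the transcript was close to the limit of detection outside female GOF.

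Scaled to library size, Hemgn was 5.50, 1.95, 0.239 and 1.37 CPM in female GOF, and every one of these exceeded the highest female control, at 0.117 CPM. The means were 2.26 ± 2.27 CPM in female GOF and 0.0374 ± 0.0555 in female controls (SD, n = 4), a ratio of 60.5 and a log2 fold change of 5.80 ± 1.13 (SE). The female control mean rested on 5 counts in all. Female GOF 1 carried much of the group's mean, which was 1.19 CPM without it, and female GOF 3 lay below male control 3, at 0.309 CPM.

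In males no such difference was seen: Hemgn averaged 0.0703 ± 0.0507 CPM in GOF and 0.105 ± 0.140 in controls, with overlapping groups and a log2 fold change of -0.56 ± 1.1796. The males' change minus the females' change was -6.36 ± 1.67 on the log2 scale, and -5.44 without female GOF 1. Between the GOF groups, the log2 difference of males minus females was -4.96 ± 1.04, or -4.04 without female GOF 1, and the 2 groups did not overlap.

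Klf1 (ENSMUSG00000054191, chromosome 8, 84901928 to 84905291) encodes the transcription factor that activates adult beta globin. In female GOF it was 4.06, 1.01, 0.567 and 1.14 CPM, and in female controls 0.674, 0.678, 0.585 and 0.587. Of the 4 GOF libraries, 3 lay above all controls and female GOF 3 below them, so the groups overlapped. The log2 fold change was 1.42 ± 0.480, and it fell to 0.52 without female GOF 1, whose removal took the group mean from 1.70 to 0.906 CPM. In males Klf1 averaged 0.523 ± 0.159 CPM in controls and 0.486 ± 0.129 in GOF (SD, n = 4).

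Slc4a1 (ENSMUSG00000006574, chromosome 11, 102348824 to 102366203) encodes band 3, the anion exchanger of the red cell membrane, which is also made in the kidney's collecting duct. In female GOF it was 36.1, 11.7, 3.67 and 7.66 CPM. In female controls it was 7.01, 0.807, 0.616 and 0.528 CPM, and the high value belonged to female control 1, the library with the largest sum of kidney genes. Female control 3, with the next largest kidney sum, was at 0.616 CPM, among the low values. The part of kidney transcripts in the value of female control 1 was not tested. The log2 fold change was 2.71 ± 0.951 with all libraries, 4.50 without female control 1 and 1.77 without female GOF 1. Male controls were at 0.246, 1.20, 3.31 and 1.20 CPM and male GOF at 0.928, 0.829, 0.801 and 2.33, all below the lowest female GOF library.

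**Figure D1:**
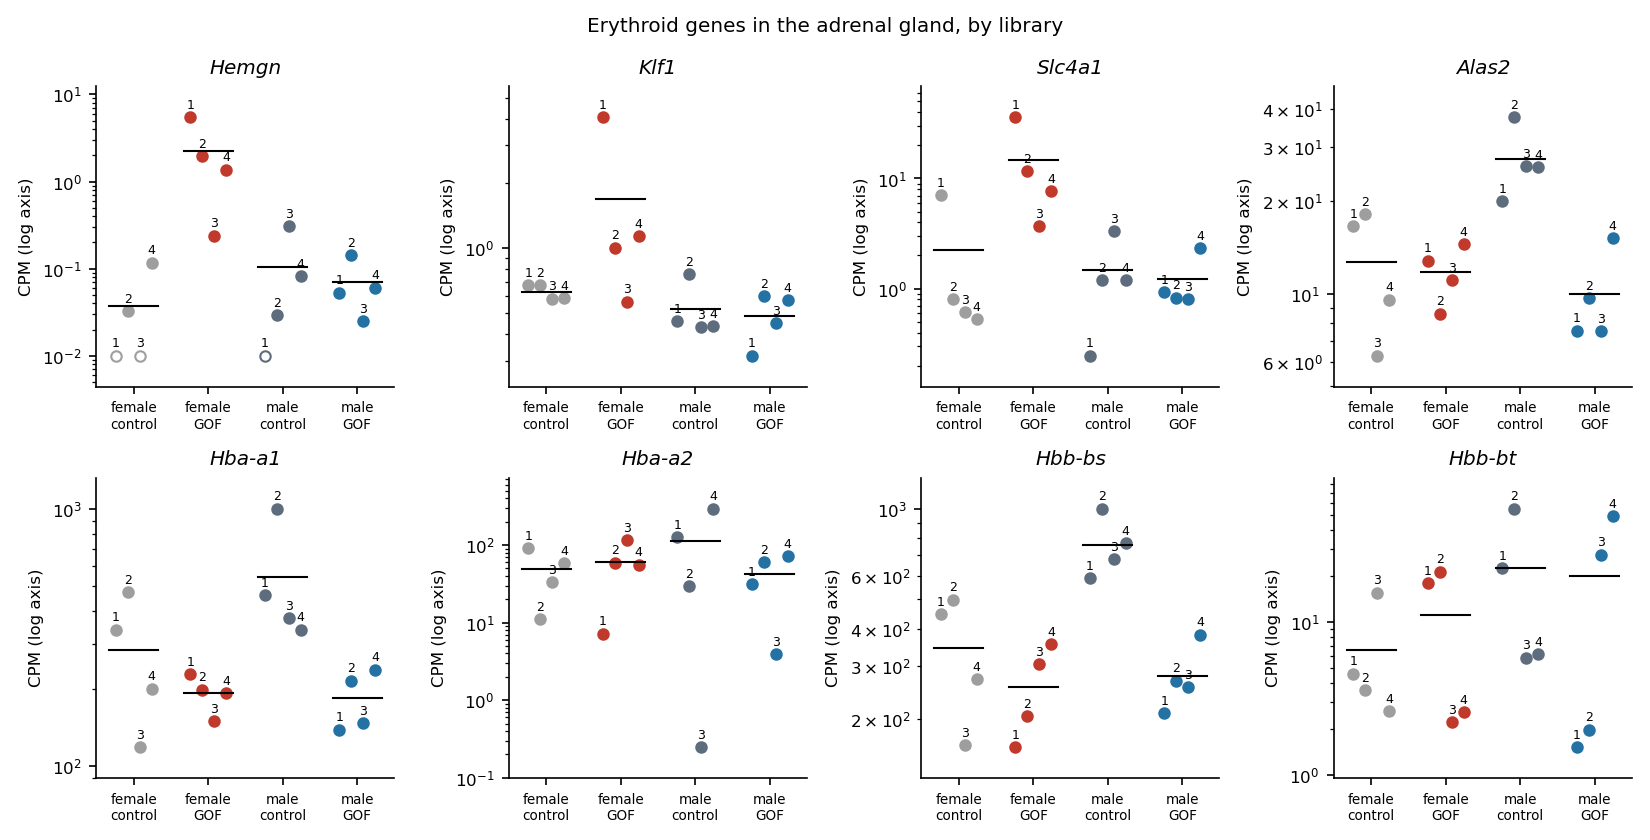
Level of the 8 erythroid genes in each of the 16 libraries, in CPM on log axes. Points are numbered libraries, horizontal lines are group means (n = 4), and open points at the bottom of the Hemgn panel are libraries with 0 counts, drawn at 0.01. Hemgn was above 0.2 CPM in all 4 female GOF libraries and 1 other, male control 3, at 0.309 CPM, while Alas2, Hba-a1 and Hbb-bs were lower in every male GOF library than in every male control.

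Alas2 and the major globins, Hba-a1 and Hbb-bs, followed another pattern: their means were highest in male controls, and the other groups overlapped one another. Alas2 (ENSMUSG00000025270, chromosome X, 150547375 to 150570638) encodes the erythroid form of aminolevulinate synthase, which starts haem synthesis. Its level was 19.9995, 37.5, 26.0 and 25.8 CPM in male controls and 7.58, 9.66, 7.54 and 15.1 in male GOF, with no overlap. The male control mean was 2.74 times the male GOF mean, and the log2 fold change was -1.46 ± 0.323, or -1.27 without male control 2. Female controls were at 16.6, 18.1, 6.28 and 9.57 CPM and female GOF at 12.8, 8.61, 11.1 and 14.5, which overlapped, with a log2 fold change of -0.11 ± 0.318.

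Hbb-bs (ENSMUSG00000052305, chromosome 7, 103826534 to 103828096) encodes an adult beta globin. It was 588, 1002, 679 and 769 CPM in male controls and 209, 269, 255 and 382 CPM in male GOF. No male GOF library reached the lowest male control, and the log2 fold change was -1.45 ± 0.332, or -1.29 without male control 2. In female controls it was 446, 499, 164 and 271 CPM, and in female GOF 161, 205, 305 and 355 CPM. The female groups overlapped, with a log2 fold change of -0.43 ± 0.326. Male controls exceeded female controls by 1.14 ± 0.329 on the log2 scale without overlap, by 0.98 without male control 2 and by 0.82 without the 3 libraries with kidney or liver transcripts, whereas GOF males and females differed by 0.12 ± 0.325.

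Hba-a1 (ENSMUSG00000069919, chromosome 11, 32283511 to 32284465) encodes an adult alpha globin. Male controls were at 461, 1005, 377 and 339.5 CPM and male GOF at 139, 215, 147 and 237 CPM, again without overlap. The log2 fold change was -1.56 ± 0.405. It shrank to -1.09 without male control 2, the library with liver transcripts, which held the highest Alas2, Hba-a1, Hbb-bs and Hbb-bt of all libraries. Female controls ran from 118 to 474 CPM and female GOF from 149 to 228 CPM. Male and female controls overlapped, with a log2 difference of males minus females of 0.95 ± 0.399. The female control mean, 283 CPM, lay above those of female GOF, at 192 CPM, and male GOF, at 185 CPM.

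Summed over the 4 globin genes, the level was 1440.3 ± 458 CPM in male controls against 683 ± 305 in female controls, 519 ± 87.0 in female GOF and 525 ± 159 in male GOF (SD, n = 4). Male controls were 2.74 times as high as male GOF, and 2.33 times without male control 2. Transcripts of other cell types moved between the same male groups. The 10 lymphocyte genes summed to 12.6 to 82.0 CPM in male controls and 87.4 to 183 in male GOF, with 1 of 10 called, as higher. The 9 endothelial genes summed to 460 to 1028 CPM and 943 to 1208 CPM, with 3 of 9 called, as higher (Emcn, Plvap and Egfl7), beside 36.9% of all genes. No gene of either list was at 0 in any library, and their part in the globin difference was not tested. Summed globin had nearly the same mean in the GOF groups of both sexes, at a ratio of 1.01. Globin made up between 0.0315% and 0.200% of all counts in a library. This amount is small, and the blood left in each gland was not measured in the sources used here.

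Levels were compared between genes per unit of length, with the deposited FPKM values (fragments scaled to gene length and library total). In female controls the order of mean FPKM was Hbb-bs at 723, Hba-a1 at 456, Hba-a2 at 90.2, Alas2 at 9.78, Hbb-bt at 8.98, Slc4a1 at 1.82, Klf1 at 0.398 and Hemgn at 0.0156. Hbb-bs was above Hba-a1 in all 4 female controls, while Alas2 was above Hbb-bt in 3 of the 4. In female GOF, Hbb-bt at 15.9 and Slc4a1 at 12.5 stood above Alas2 at 9.47 in the mean, but each exceeded it in only 2 of the 4 libraries. Klf1 at 1.12 and Hemgn at 0.975 came last, with Klf1 the higher in 3 of the 4.

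The ratio of the other genes to globin was then examined library by library. Alas2 kept a narrow ratio: between 167 and 309 counts per 10000 globin counts over all 16 libraries, a coefficient of variation of 18.3%, although the summed globin level varied 6.32-fold. The highest value, 309, was that of female GOF 1, and the next, 245 and 239, those of male control 3 and female GOF 4. Hemgn behaved differently, with 133, 40.2, 4.17 and 22.6 counts per 10000 globin counts in female GOF and at most 2.91 in any other library. Slc4a1 was at 871, 241, 64.1 and 126 per 10000 globin counts in female GOF. Elsewhere it reached 79.5 in female control 1 and at most 31.5 in the remaining libraries. For Klf1 the ratio was 98.1 in female GOF 1 and 20.8, 9.91 and 18.9 in the other female GOF libraries, against 3.09 to 17.7 outside that group. Its 4 male controls, at 3.09 to 4.07, lay below all other libraries, while the CPM of Klf1 itself was much alike in male controls and male GOF.

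**Figure D2:**
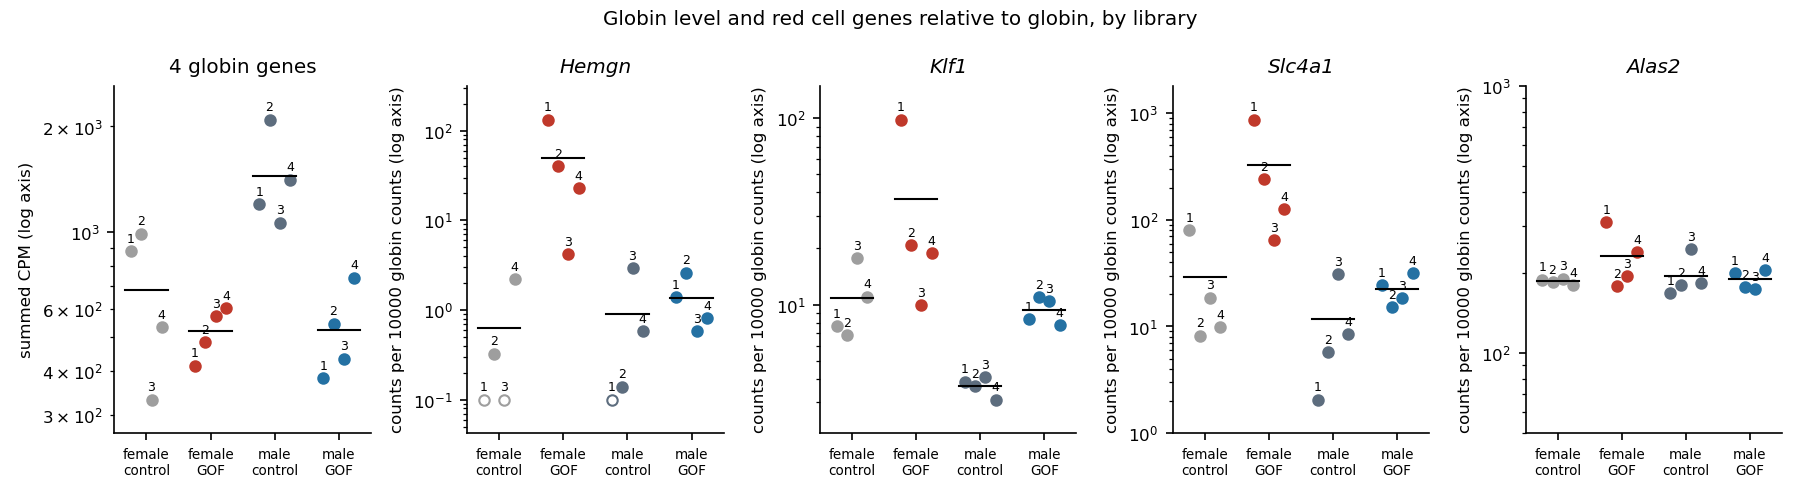
Summed CPM of the 4 globin genes, and counts of Hemgn, Klf1, Slc4a1 and Alas2 per 10000 globin counts, in each of the 16 libraries, on log axes. Points are numbered libraries, lines are group means (n = 4), and open points are 0 counts, drawn at 0.1. Alas2 stayed between 167 and 309 per 10000 globin counts, while Hemgn reached 133 in female GOF 1.

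The second genes of the alpha and beta pairs varied from library to library in a way that did not follow the groups. Hba-a2 (ENSMUSG00000069917, chromosome 11, 32296489 to 32297298) had 8 counts in male control 3 and 10845 in male control 4. As a share of all alpha globin counts it was 0.0655% (exact 95% binomial interval 0.0283 to 0.129) in male control 3. It lay between 2.30% and 3.08% in 4 libraries, 1 of each group, between 18.5% and 23.1% in 9, and at 43.8% in female GOF 3 and 46.5% in male control 4. No library lay between these ranges. Hbb-bt (ENSMUSG00000073940, chromosome 7, 103812524 to 103813996) took between 0.713% and 1.02% of the beta globin counts in 9 libraries and between 3.70% and 11.4% in the other 7, with libraries of all 4 groups in each range. Intervals cover counting error only.

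Counts of these pairs are uncertain, since the copies share sequence. Of the windows of 150 bases, the read length, in the longest annotated transcript of Hba-a2, 65.7% occurred unchanged in Hba-a1, and 48.4% of those of Hba-a1 occurred in Hba-a2. For Hbb-bs and Hbb-bt the shares were 58.7% and 50.7%. How reads that fit both copies were counted is not given in the sources used here. The labels give a mixed genetic background without the strain of each mouse, and whether the shares follow it was not tested. The log2 fold changes had wide errors: for Hba-a2 0.29 ± 1.1798 in females and -1.43 ± 1.20 in males, and for Hbb-bt 0.75 ± 1.11 and -0.16 ± 1.09. Single libraries moved these values: Hba-a2 in females was -0.30 without female GOF 3 and 0.80 without female control 1. Hba-a2 in males was -0.30 without male control 4, Hbb-bt in females was 1.62 without female control 3, and Hbb-bt in males was 0.80 without male control 2 and -1.14 without male GOF 4. The alpha to beta ratio of summed counts ran from 0.535 to 1.31.

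**Figure D3:**
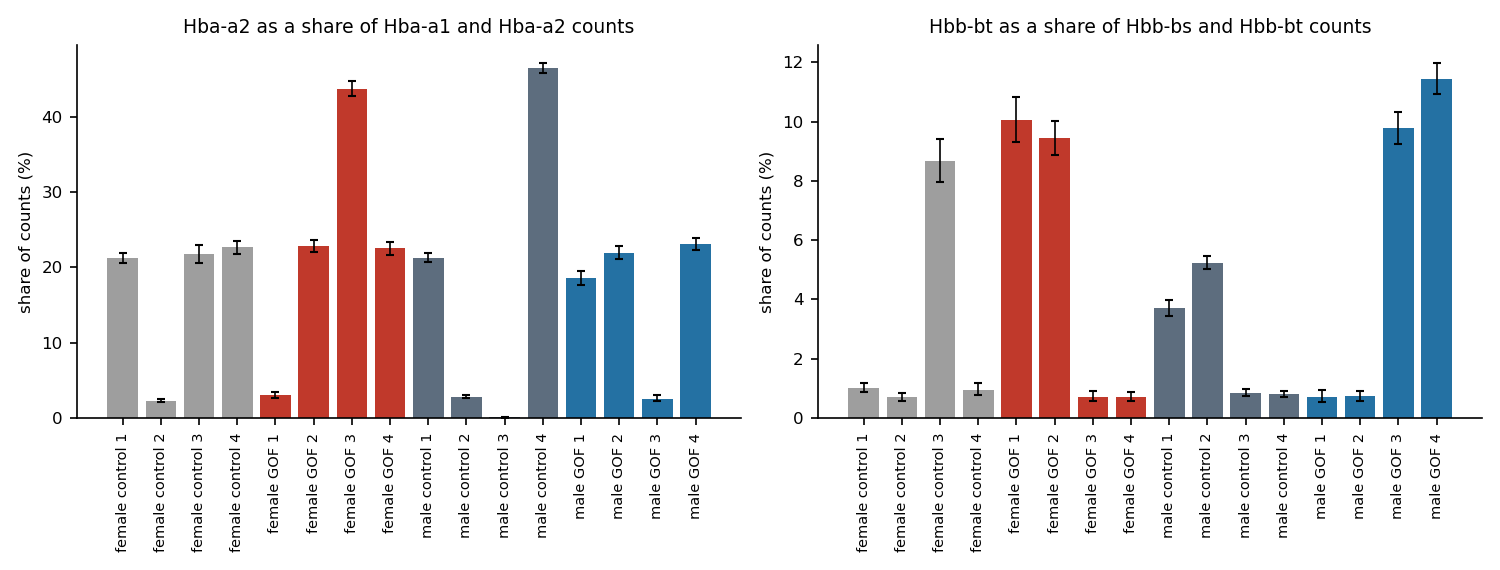
Share of alpha globin counts assigned to Hba-a2 (left) and of beta globin counts assigned to Hbb-bt (right), in percent, for each of the 16 libraries, with exact 95% binomial intervals as error bars. The Hba-a2 shares fall near 0%, 2% to 3%, 18% to 23% and 43% to 47%, and each of the 4 groups holds libraries from more than 1 of these ranges.

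Set against all genes, the counts of called members were as follows; a gene was called where its adjusted p in edgeR's quasi-likelihood test was under 0.05, and because the members were selected on these contrasts nothing is read from their counts. In females 3 of 8 were called, all higher in GOF (Hemgn, Klf1 and Slc4a1), while 39.6% of all genes were called, 19.0% higher and 20.6% lower. In males 3 of 8 were called, all lower (Alas2, Hba-a1 and Hbb-bs), beside 36.9% of all genes, 15.2% higher and 21.8% lower. The median log2 fold change of the 8 was 0.52 in females and -0.99 in males, against 0.05 and 0.01 over all genes tested. Between the sexes, 2 were called in controls (Alas2 and Hbb-bs, higher in males) beside 23.4% of all genes, and 3 in GOF (Hemgn, Klf1 and Slc4a1, lower in males) beside 29.6%. The change differed between the sexes for 1, Hemgn, beside 4.21% of all genes. Groups did not overlap for 1 member in females and 3 in males, beside 37.8% and 33.1% of all genes.

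To see how the rest of the red cell programme behaved, 81 further genes in 6 lists were examined: transcription factors, other globins, haem synthesis and iron supply, membrane, maturation and metabolism, and erythropoietin signalling. Of these, 69 were tested. In females 25 passed, 12 higher and 13 lower in GOF (36.2%), and in males 22 passed, 5 higher and 17 lower (31.9%). Both shares were a little under those of all genes. The median log2 fold change of the 69 was -0.07 in females and -0.12 in males.

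In the membrane and maturation lists, 5 of the 33 genes tested passed as higher in female GOF and 8 as lower, a share close to the 39.6% of all genes, with median log2 fold changes of -0.25 and -0.19. Of the 5 that were higher, 3 are described here. Ermap, an erythroblast membrane protein, was 6.84, 2.34, 0.657 and 1.54 CPM in female GOF and 0.558 CPM or less in female controls. It rose by 2.89 ± 0.657 on the log2 scale (adjusted p 0.003), from a mean of 0.378 ± 0.218 CPM to 2.84 ± 2.75. Trim10, a ubiquitin ligase of late erythroblasts, rose by 2.98 ± 0.895 (adjusted p 0.0162), and Epb42, which ties band 3 to the membrane skeleton, by 2.40 ± 0.676 (adjusted p 0.0113). In none of these 3 genes did the female groups overlap, as in 37.8% of all genes tested.

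These calls depended in part on female GOF 1. Without it the log2 fold changes were 1.99 for Ermap, 2.15 for Trim10 and 1.34 for Epb42, and Trim10 (adjusted p 0.0695) and Epb42 (adjusted p 0.0744) no longer passed. In males none of the 3 passed: the changes were 0.23 ± 0.625 for Ermap, 0.00 ± 0.892 for Trim10 and -0.53 ± 0.789 for Epb42. The tests of the difference between the sexes gave adjusted p values of 0.109 for Ermap, 0.193 for Trim10 and 0.128 for Epb42, so for none of these genes was the change shown to differ between females and males.

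Further erythroblast genes were too low for the filter, and 4 of them are named after their values were seen. Rhag, the Rh-associated glycoprotein, had 156, 46, 5 and 17 counts in female GOF and 2, 0, 0 and 1 in female controls. Its mean in female GOF was 1.56 CPM, or 0.563 without female GOF 1, against 0.0208 CPM in female controls. Kel, the Kell blood group protein, had 88, 50, 5 and 10 counts in female GOF and 1, 0, 1 and 2 in female controls. Gfi1b, a transcription factor of red cell and platelet precursors, had 52 and 20 counts in female GOF 1 and 2 but 1 and 2 in female GOF 3 and 4, no more than the controls. Trim58, which acts as erythroblasts lose their nucleus, had 27, 7, 2 and 5 counts in female GOF and at most 2 in every other library. In male GOF Rhag had 2 or 3 counts a library. The 6 other globins of the list, embryonic or minor ones such as Hbb-y and Hba-x, were not tested, and together stayed at 0.351 CPM or less in every library.

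**Figure D4:**
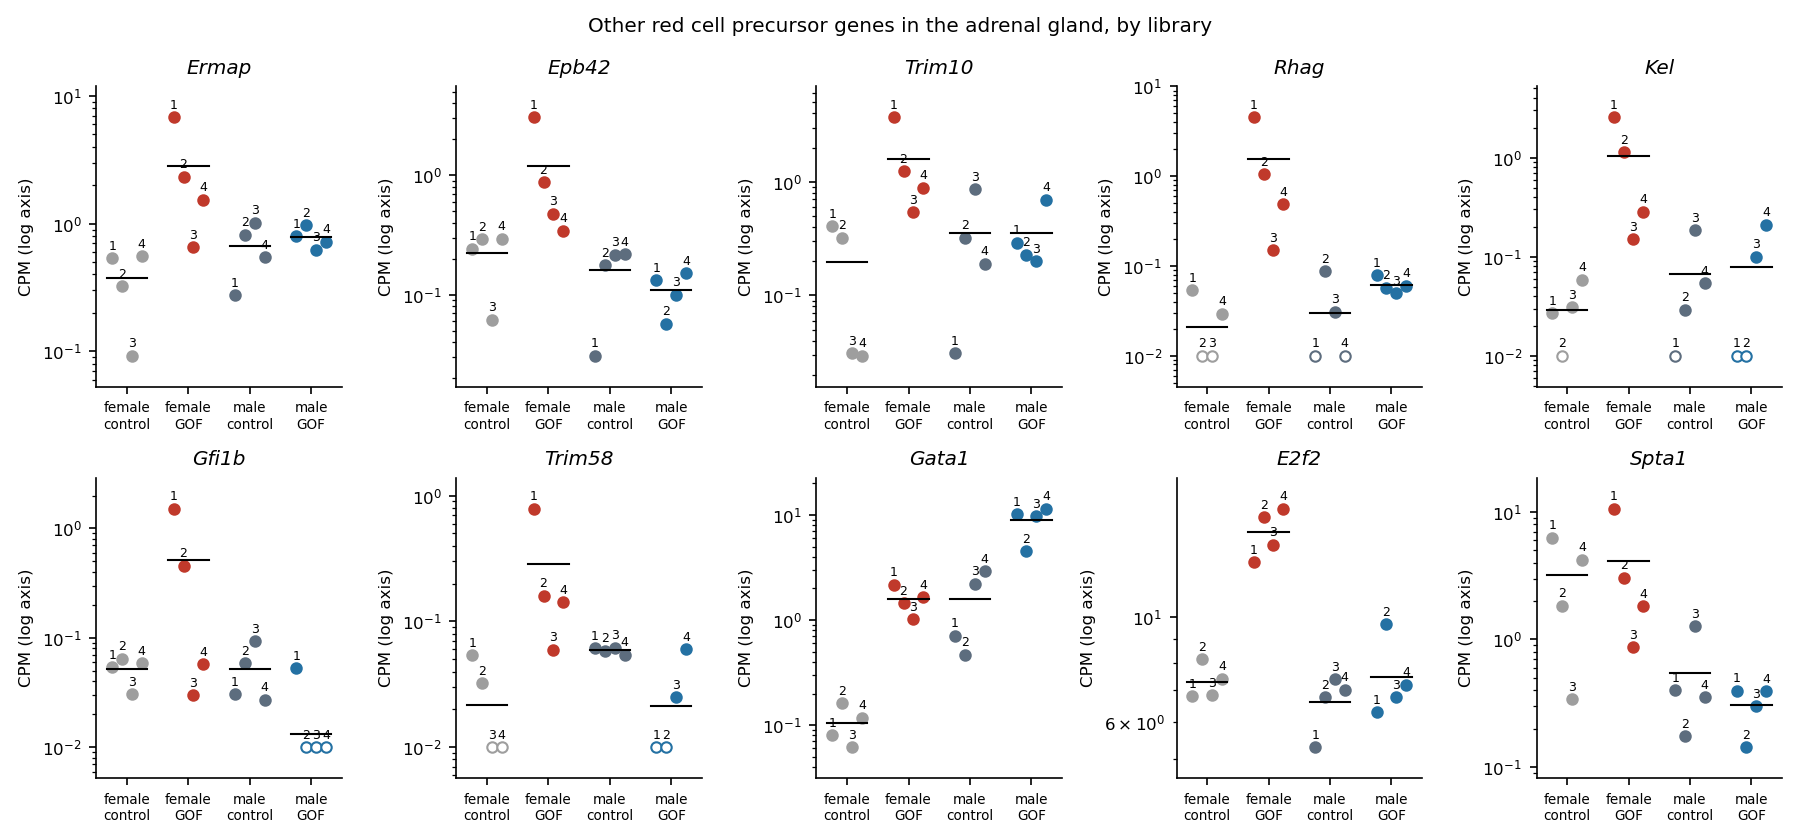
Level of 10 further genes of red cells and their precursors in each of the 16 libraries, in CPM on log axes. Points are numbered libraries, lines are group means (n = 4), and open points are 0 counts, drawn at 0.01. Some of the genes were chosen after their values were seen. Gata1 was highest in male GOF and E2f2 in the female GOF group as a whole.

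Of 11 transcription factors tested, 5 passed as higher in female GOF (Gata1, Ldb1, Bcl11a, Myb and E2f2) and 3 as lower (Zfpm1, Lmo2 and Sox6), 72.7% of the list beside 39.6% of all genes. In males Gata1 and Ldb1 passed as higher and Sox6 as lower, 27.3% beside 36.9%. The calls of Myb in females and of Ldb1 in males were marginal, and were lost under 18 of 25 and 12 of 28 alternatives. Gata1, the master regulator of red cell genes, was 2.16, 1.44, 1.02 and 1.66 CPM in female GOF against 0.105 ± 0.0440 CPM in female controls (SD, n = 4), a log2 fold change of 3.86 ± 0.597 with an adjusted p of 0.000163. It was higher still in male GOF, at 10.2, 4.52, 9.72 and 11.5 CPM against 1.58 ± 1.1805 in male controls, with a log2 fold change of 2.51 ± 0.494 and an adjusted p of 0.00113. Male GOF thus had the highest Gata1 and, at 0.0703 CPM, almost no Hemgn. The change of Gata1 was not shown to differ between the sexes (adjusted p 0.321).

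E2f2, a cell cycle transcription factor that is abundant in erythroblasts, rose in female GOF, from 7.29 ± 0.628 to 15.2 ± 1.82 CPM (log2 fold change 1.06 ± 0.155, adjusted p 0.000109). Its 4 female GOF libraries lay close together, between 13.1 and 17.0 CPM, with female GOF 1 the lowest. In males it went from 6.61 ± 0.918 to 7.47 ± 1.504 CPM (adjusted p 0.395), and the males' change was smaller by 0.88 ± 0.218 on the log2 scale (adjusted p 0.0355), a difference that missed the threshold under 18 of 27 alternatives, with adjusted p up to 0.233. Sox6, which silences embryonic globin in red cells and is made in other tissues too, fell by 2.05 ± 0.297 in females (adjusted p 9.76e-05) and by 3.04 ± 0.307 in males (adjusted p 3.73e-06).

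Among 16 genes of haem synthesis and iron supply, 3 passed in females (18.8%) and 6 in males (37.5%), beside 39.6% and 36.9% of all genes. Ppox, an enzyme late in haem synthesis, rose in both sexes, by 0.71 ± 0.205 (adjusted p 0.0134) and 0.92 ± 0.206 (adjusted p 0.00287). Slc25a37, which brings iron into mitochondria, rose by 0.61 ± 0.1498 (adjusted p 0.00523) and 0.55 ± 0.149 (adjusted p 0.00941). Tmem14c, a mitochondrial porphyrin carrier, fell by 0.33 ± 0.0751 and 0.43 ± 0.0753 (adjusted p 0.00294 and 0.000458). Abcb10, a mitochondrial transporter of developing red cells, was the gene of this list whose change differed between the sexes: it fell from 34.0 ± 3.89 to 20.5 ± 1.21 CPM in males (log2 fold change -0.73 ± 0.0894, adjusted p 1.85e-05). In females it was 25.6 ± 1.04 in controls and 23.1 ± 2.06 CPM in GOF (adjusted p 0.212). The difference between these changes was -0.59 ± 0.126 (adjusted p 0.0183), and it missed the threshold under 6 of 27 alternatives. Most of these genes are known to serve every cell with mitochondria, and which cells supplied the transcripts was not tested.

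Of 17 membrane genes tested, 3 were higher and 6 lower in female GOF, and 7 were lower in male GOF. These are 52.9% and 41.2% of the list, beside 39.6% and 36.9% of all genes. Those that fell included Dmtn, an actin-bundling protein (by 2.23 ± 0.368 in females and 3.28 ± 0.383 in males, adjusted p 0.000291 and 1.35e-05), the water channel Aqp1 (by 1.94 ± 0.347 and 2.54 ± 0.354, adjusted p 0.000563 and 6.82e-05) and the membrane protein Gypc (by 1.75 ± 0.249 and 1.82 ± 0.249, adjusted p 8.31e-05 and 5.15e-05). Rhd, an Rh blood group protein, went the opposite way to Rhag: it fell in females from 11.3 ± 4.05 to 1.996 ± 1.54 CPM (log2 fold change -2.51 ± 0.474, adjusted p 0.0008) and was at 0.374 ± 0.170 CPM in male controls. Alongside, all 6 genes of the adrenal medulla list fell in both sexes, with median log2 fold changes of -3.95 and -3.90; the part of that tissue in the lower membrane genes was not tested.

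Among 16 maturation and metabolism genes, Trim10 and Ube2o passed as higher and Blvrb and Hebp1 as lower in female GOF. The call of Ube2o was lost under 18 of 28 alternatives. In males 4 passed, all lower. Both counts are 25.0% of the list, below the 39.6% and 36.9% of all genes. Bpgm, which sets the oxygen affinity of haemoglobin, fell by 0.51 ± 0.116 (adjusted p 0.00327), and the carbonic anhydrase Car2 by 0.67 ± 0.242 (adjusted p 0.043, lost under 15 of 28 alternatives). Of 9 erythropoietin signalling genes, 11.1% passed in females and 22.2% in males. Stat5b passed in females, lower by 0.46 ± 0.0901 (adjusted p 0.00103). Cish, a feedback inhibitor, and the survival gene Bcl2l1 passed in males, lower by 1.29 ± 0.470 (adjusted p 0.0436) and 0.30 ± 0.0901 (adjusted p 0.018), calls lost under 11 and 8 of 28 alternatives.

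**Figure D5:**
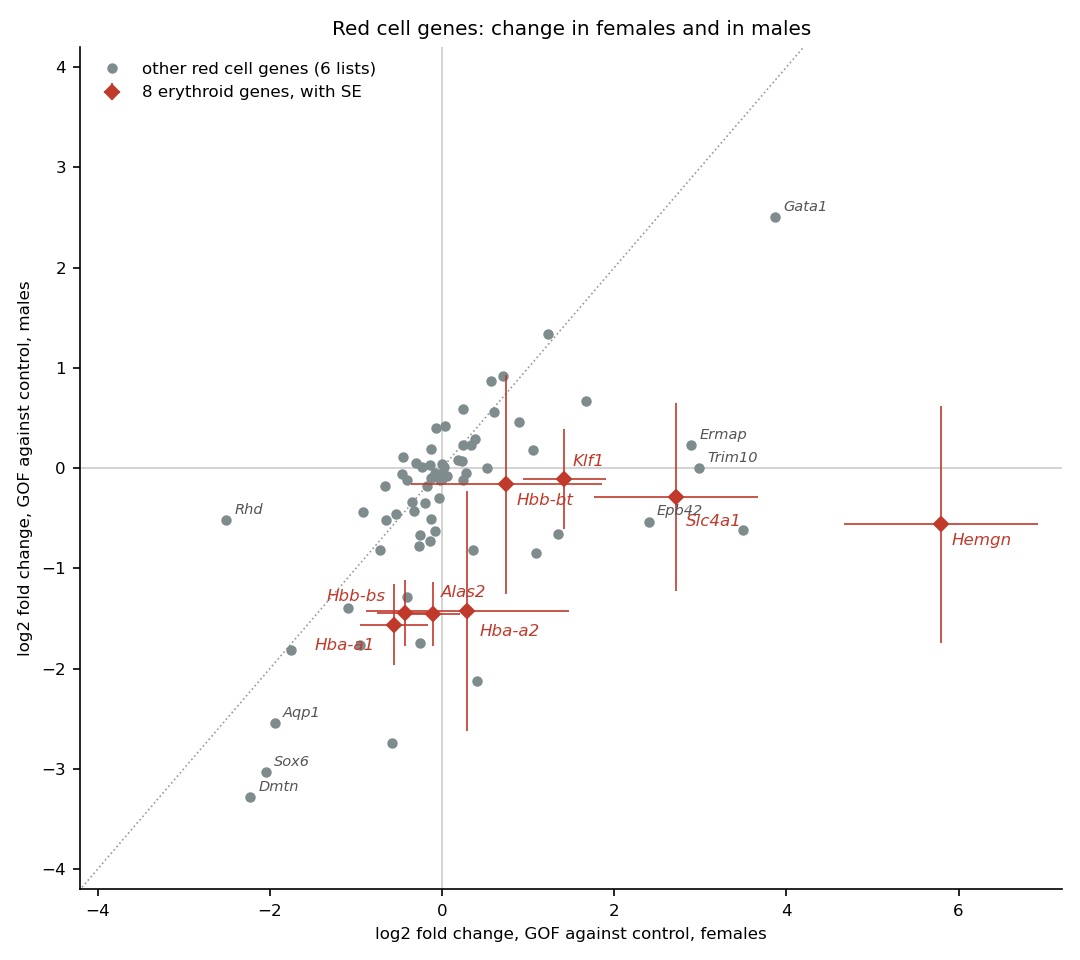
Log2 fold change of GOF against control in females (horizontal axis) and in males (vertical axis), for the 8 erythroid genes (diamonds, with SE bars) and the 69 tested genes of the 6 red cell lists (grey points). The dotted line marks equal change in both sexes. Hemgn, Trim10, Ermap, Slc4a1 and Epb42 lie far to the right, with male changes between -0.56 and 0.23; Alas2, Hba-a1 and Hbb-bs lie below the line, with log2 fold changes of -1.46, -1.56 and -1.45 in males and -0.11, -0.56 and -0.43 in females; Gata1 is high in both.

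Female GOF 1 was the highest female GOF library in 24.2% of all genes tested and in 38 of the 69 list genes (55.1%). Neutrophil and myeloid precursor transcripts moved with female GOF 1. The summed level of their 10 genes was 122 CPM there and 8.15, 4.72 and 6.55 CPM in female GOF 2, 3 and 4. Whether neutrophils or precursors supplied this sum was not tested. Male GOF 2, with a sum of 196 CPM, had Hemgn at 0.143 CPM, and female GOF 2, with 8.15 CPM, had Hemgn at 1.95 CPM. Without female GOF 1 and male GOF 2, the log2 fold change in females was 4.82 for Hemgn, 0.46 for Klf1 and 1.73 for Slc4a1. No platelet and megakaryocyte gene of 7 tested passed in females, beside 39.6% of all genes, with 1 at an unadjusted p under 0.05 in edgeR, and the summed level of the 13 listed was 15.6 to 24.5 CPM in female GOF against 20.7 to 32.3 in female controls.

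Genes whose level followed Hemgn most closely were sought by Pearson correlation of log2 CPM over the 16 libraries, among 14064 genes; the points share library depth and group, so the values are a description. Among the 10 nearest were S100pbp at 0.89, Sin3a at 0.88, Ermap at 0.88, Sp1 at 0.87, and Brca2, Kitl, Kansl1, Dsn1 and Cemip2, the last 5 between 0.84 and 0.85. After the group means were subtracted, Ermap kept 0.83 and Sin3a 0.72, while Dsn1 and Cemip2 were at 0.30. Slc4a1 ranked 31st and Klf1 92nd, and the 4 globins and Alas2 had values between -0.38 and -0.05. For Hbb-bs the nearest gene was Alas2, at 0.93 and at 0.85 without group means, followed by Ssbp3 at 0.90, Calb2 at 0.88, Tmsb10 at 0.86, Tusc3 at 0.86 and Hba-a1 at 0.85. Kcns2, Stmn4, Tspan3 and Unc5c followed, each at 0.85. Hba-a2, at 0.01, and Hbb-bt, at 0.15, did not follow Hbb-bs.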

How the data were processed

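RNA from 16 adrenal glands was sequenced as paired reads of 150 bases from NEBNext Ultra libraries, with RNA integrity of at least 7.0, per the labels. The submitters' processing notes name Bowtie2 2.2.3, TopHat2 2.0.12, HTSeq 0.6.1 and DESeq 1.18.0, without role or order; build, annotation and strand setting are not given in the sources used here. The deposited counts are whole, unnormalized reads per gene. The deposited FPKM values were made by the authors from the same counts, divided by library total and by 1 fixed length per gene (relative deviation of at most 2.0e-13). Of 54838 identifiers, 54809 were in GENCODE M21.

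Genes with a count in any library numbered 34196, and edgeR's filterByExpr by group kept 18214. The main test was edgeR's quasi-likelihood F test in its robust form (edgeR 4.0.16, R 4.3.3), with TMM factors, a mean per group over all 16 libraries, Benjamini-Hochberg adjustment over the genes tested and 0.05 as threshold. Mice were individual, and no library was a copy of another (chi-square per degree of freedom of at least 19.0 over 24 pairs within groups). Exact binomial intervals have a level of 95%. Alternatives were other scaling factors, DESeq2 1.42.0, other filters, limma 3.58.1 on log2(FPKM + 1) or log2(FPKM + 0.1), the range of animal numbers as a covariate, and each library left out. After the data were seen, 2 more were added. These left out the 3 libraries with kidney or liver transcripts, or the 2 with most neutrophil and myeloid precursor transcripts. The code was tested on simulated counts. Tables and plots used Python 3.11.15 with pandas 2.3.3 and matplotlib 3.10.9.

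The members and lists were chosen with earlier results of these data known. The 8 members are all named. Of the other genes the rules below would name, 2 are not reported here. Of each list, up to 4 genes per sex were taken that passed with the largest change and averaged 0.5 CPM or more in either group; where none passed, the 2 most abundant tested genes. The 10 most alike genes were named for Hemgn and Hbb-bs (averaging 1 CPM or more, prior count 2); others are named as members of a list that passed, or as chosen after their values were seen.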

Additional observations from a re-analysis of the deposited data

Results flagged for a closer look

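Within the 32 pairs of a member and a group, 5 single libraries lay far from the other 3 of their group by Dixon's test, with a gap above 0.829 of the group's range; chance flags about 1 in 20 groups. Klf1 in female GOF 1 was 4.06 CPM, with the next library at 1.14 CPM, and Klf1 in male control 2, the library with liver transcripts, was 0.761 CPM with the next at 0.462. Slc4a1 in female control 1, the library with the most kidney transcripts, was 7.01 CPM with the next at 0.807, and in male GOF 4 it was 2.33 CPM with the next at 0.928. Hbb-bt in female control 3 was 15.6 CPM with the next at 4.58.

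The change by genotype of 2 of the 69 list genes tested differed between the sexes in the interaction test of edgeR. This is 2.9% of them, beside 4.21% of all genes. For E2f2 the males' log2 change minus the females' was -0.8799 (adjusted p 0.0355; range over the alternatives 0.00407 to 0.233), and E2f2 was higher in 4 of 4 female GOF libraries than in every female control. For Abcb10 the difference was -0.5873 (adjusted p 0.0183; range over the alternatives 0.00139 to 0.175), and Abcb10 was lower in 4 of 4 male GOF libraries than in every male control.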

How the results depend on the processing

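Of 1083 recomputed log2 fold changes of the 8 members, 1047 moved by less than the spread, 36 moved by more and 0 reversed a called direction. Where errors were wide, large moves counted as less than the spread. Hba-a2 in males, which went from -1.43 ± 1.20 to -0.30 without male control 4, was counted so. With limma on unfiltered log2(FPKM + 1) Hemgn in females was 0.84, from 5.80. With the animal number range as a covariate Hbb-bt in males went from -0.16 to -2.52, its interaction from -0.91 to -3.60 and its difference between the sexes in GOF from 0.86 to -1.92. Slc4a1 in females was 4.46 without the 3 libraries with kidney or liver transcripts. Klf1 in females was 0.46 without the 2 libraries rich in neutrophil and myeloid precursor transcripts. Hemgn in females was 7.38 without female control 4. In males Hemgn went from -0.56 to 0.80 without male control 3. Of 3346 values for named list genes, 3045 kept their side of the threshold, 279 lost it, 20 gained it and 2 reversed: Alb, a liver gene, became 0.42 in males without male control 2 and 0.41 without the 3 libraries with kidney or liver transcripts, from -7.16; leaving out single libraries gave -9.27 to 0.42.

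The number of genes called in females was 7217 and became 4554 without those 3 libraries. Between the sexes it was 4267 in controls, 1311 with the animal number range as a covariate, 1648 without the 3 libraries and 2650 to 4881 without single libraries, lowest without female control 3. In GOF it was 5394, and 1336 with the covariate. Of the 4 ranges of animal numbers, only 1 held both sexes, with female control 1 and female GOF 1 as its only females. With the covariate, a comparison of the sexes therefore rests on that range. The covariate leaves female GOF 4, alone in its range, out of the estimates. The interaction called 766 genes, against 1432 with DESeq2, 408 without a filter, 407 with limma on unfiltered FPKM, 442 with the covariate, 175 without the 3 libraries and 377 to 953 without single libraries; the count fell to 495 or fewer without any 1 of 6 libraries (replicate 3 of each of the 4 groups, and replicate 4 of either GOF group). The cause of these moves was not tested. List genes called ranged from 21 to 28 in females and from 16 to 24 in males without single libraries, and were 18 and 15 without the 3. Higher calls were 48.0% of those in females and 41.1% in males, against 60.7% and 61.3% with limma on log2(FPKM + 1), which moved the median gene by 0.0947 and 0.104.

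No paired analysis was possible because the labels give animal numbers and no replicate numbers shared between groups. Depth limits Hemgn, Rhag, Kel, Gfi1b and Trim58, with 10 counts or fewer in every library outside female GOF.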

Other observations

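Iron-recycling macrophages take up old red cells, and some of their genes changed in both sexes. Slc40a1, the iron exporter ferroportin, rose from 19.2 ± 1.38 to 42.2 ± 12.4 CPM in females (log2 fold change 1.14 ± 0.373, adjusted p 0.0256 in edgeR) and from 29.7 ± 12.2 to 88.7 ± 51.3 CPM in males (1.58 ± 0.374, adjusted p 0.00451; mean ± SD, n = 4). The call of Slc40a1 in females was lost under 10 of 28 alternatives. Vcam1, an adhesion molecule, rose by 0.97 ± 0.196 (adjusted p 0.00131) and 1.23 ± 0.196 on the log2 scale. Cd163, the haemoglobin scavenger receptor, fell by 1.23 ± 0.232 and 1.41 ± 0.229. In each of these 3 genes the GOF and control libraries did not overlap in either sex, as in 37.8% of all genes in females and 33.1% in males. Of the 10 genes of that list, 3 were higher and 1 lower in female GOF, and 4 higher and 1 lower in male GOF. Called genes made up 40.0% of the list in females, the share of all genes being 39.6%, and 5 of 10 in males, where it was 36.9%. The median log2 fold change of the list was 0.44 in females and 0.61 in males, against 0.05 and 0.01 over all genes tested. The interaction test of edgeR called 0 of the 10, and 0 of them had an unadjusted p under 0.05.

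Mast cells, like red cell precursors, express Gata1 and Gata2. The mast cell proteases Mcpt4 and Tpsb2 were low in every group. Mcpt4 was 5.67, 4.65, 0.538 and 2.40 CPM in the female GOF libraries against 1.19 ± 0.304 CPM in female controls (adjusted p 0.0486), and Tpsb2 was 7.66, 5.86, 0.717 and 3.32 CPM against 1.26 ± 0.555 CPM (adjusted p 0.0341). For both genes the groups overlapped, with female GOF 1 and 2 high and female GOF 3 low, and the calls were lost under 25 and 13 of 27 alternatives. Other genes of the list went the opposite way in female GOF. Hdc, which makes histamine, fell from 56.5 ± 12.7 to 5.93 ± 1.76 CPM and Gata2 from 68.6 ± 22.5 to 8.84 ± 2.38 CPM. The median summed level of the 10 listed genes was 137 CPM in female controls and 71.6 in female GOF. Hdc and Gata2 made up most of that sum in female controls, so its fall does not describe the other genes. The median log2 fold change of the 8 tested was 1.37 in females and -3.05 in males. All 6 genes of the adrenal medulla list fell too, and the part of that tissue in the fall of Hdc and Gata2 was not tested. In all, 3 of 8 tested were higher and 2 lower in female GOF, 62.5% beside 39.6% of all genes, and 0 were higher and 6 lower in male GOF, beside 36.9% of all genes. In male GOF Mcpt4 and Tpsb2 fell, from 2.89 ± 0.476 to 0.214 ± 0.163 CPM for Mcpt4 and from 3.04 ± 0.554 to 0.268 ± 0.281 CPM for Tpsb2, without overlap. Of 8 mast cell genes tested, the change differed between the sexes in 6, lower in males for Cpa3, Cma1, Mcpt4, Tpsb2 and Tpsab1 and higher for Hdc, beside 4.21% of all genes; the number of genes called in this test over all genes ran from 175 to 1432 over the alternatives. These genes were named after their values were seen.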
